A study of Mus musculus with 8 samples.

Results

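The genes described here are the insulin-like growth factors, their binding proteins and their receptors in neonatal mouse liver. Igf1, Igf2, Igfals, Igfbp1, Igfbp2, Igfbp3, Igfbp4, Igfbp7, Igf1r and Igf2r were taken by symbol, and all 10 were found among the 48440 genes of the count table. They were chosen with their knockout and control values known, so those values are given as a description, with no test. RNA was sequenced from whole liver of 4 CD1 mouse pups with a germline deletion of Myo5b, which encodes the motor myosin Vb, and of 4 CD1 control littermates. The controls were heterozygous or wildtype, and the labels do not say which pup was which. Livers were taken from pups aged 3 to 8 days, with no age, sex or litter stated for a single pup. The deletion is germline and so was carried by every cell type of the knockout livers. Library totals ran from 14228268 to 18398039 counts.

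In the circulation, IGF-1 and IGF-2 act through the receptor tyrosine kinase IGF1R, while IGF2R binds IGF-2 and takes it to the lysosome. Hepatocytes make most of the circulating IGF-1 once growth hormone signalling, through the growth hormone receptor and STAT5, matures after birth, whereas IGF-2 is the main liver IGF of the fetus and newborn. IGF-binding proteins carry the ligands. IGFBP-3 forms a long-lived ternary complex with an IGF and the acid-labile subunit, the product of Igfals, and IGFBP-1 is a short-lived carrier whose gene insulin represses and fasting induces.

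The promoters of Igfbp1, Igfals and Igf1 are shown because these 3 genes had the largest fold differences among the 10. RefSeq promoters on GRCm38.p6, from 250 bases before to 50 bases after a start site, were found for all 10 genes (16 promoters). They were searched on both strands for TTCNNNGAA (the STAT5 type), GTAAACA (the forkhead type), CAAAACA (the insulin response type) and GTTAAT (the HNF1 type). Capitals mark the matches, and all sequences run 5′ to 3′ on the gene's strand, here the plus strand.
Igfbp1, chr11:7197537-7197836: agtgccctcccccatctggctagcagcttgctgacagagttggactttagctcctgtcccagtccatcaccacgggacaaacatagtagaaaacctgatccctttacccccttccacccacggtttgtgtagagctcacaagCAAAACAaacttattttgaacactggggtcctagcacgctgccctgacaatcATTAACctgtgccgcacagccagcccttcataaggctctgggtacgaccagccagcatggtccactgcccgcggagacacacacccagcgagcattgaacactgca
Igfals, chr17:24877981-24878280: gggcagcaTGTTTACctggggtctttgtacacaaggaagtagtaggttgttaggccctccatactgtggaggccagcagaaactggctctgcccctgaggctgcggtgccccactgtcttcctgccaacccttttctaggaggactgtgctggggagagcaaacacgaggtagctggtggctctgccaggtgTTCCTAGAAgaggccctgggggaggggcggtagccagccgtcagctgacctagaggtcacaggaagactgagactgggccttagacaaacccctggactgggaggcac
Igf1, chr10:87860861-87861160: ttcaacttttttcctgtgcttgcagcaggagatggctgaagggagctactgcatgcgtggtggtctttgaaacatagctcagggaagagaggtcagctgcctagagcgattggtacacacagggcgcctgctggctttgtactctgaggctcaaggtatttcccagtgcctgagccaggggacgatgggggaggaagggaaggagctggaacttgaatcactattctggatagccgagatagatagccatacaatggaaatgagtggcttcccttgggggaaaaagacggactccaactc
The Igfbp1 promoter held the insulin response type match from 108 to 102 bases before the start site and an HNF1 type match on the other strand from 56 to 51 bases before it. The Igfals promoter that is printed held a STAT5 type match, TTCCTAGAA, from 58 to 50 bases before the start site, and a forkhead type match on the other strand. Another of the 3 Igfals promoters, chr17:24877594-24877893, held another STAT5 type match, TTCTCAGAA. No match to any of the 4 motifs lay in the other 13 promoters, that of Igf1 included. The promoter table holds 1 start site for Igf1, and other starts of that gene were not searched. Of all 32851 promoters in the table, 8.30% held the STAT5 type, 3.65% the forkhead type, 6.28% the insulin response type and 7.10% the HNF1 type. These matches describe the letters in the windows searched.

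The labels were checked with Myo5b, which was at 49.3 ± 7.06 CPM in knockout and 133 ± 33.1 CPM in control livers (SD, n = 4; -1.43 on the log2 scale, SE 0.18, adjusted p = 3.14e-04 in edgeR's quasi-likelihood test), with no overlap between the groups. CPM are read counts scaled to a common library size with TMM factors, and log2 fold changes are knockout over control. Of 18274 genes tested, 20.7% were called at an adjusted p under 0.05, with 9.27% higher and 11.4% lower in the knockout livers, and 23.6% had groups that did not overlap. The calls were 1694 higher and 2088 lower, against 2300 and 1696 when scaled by library size alone and 6318 and 842 when scaled by hepatocyte genes. Erythroid marker genes were lower in the same knockout livers (15 of 15 called), while 12 of 13 Kupffer cell genes and 9 of 13 sinusoidal endothelial genes were higher. In whole liver, fewer cells of a type and less RNA per cell cannot be told apart.

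Among the ligands, Igf1 was about 6-fold lower in the knockout livers and the Igf2 ranges overlapped. Igf1 (chromosome 10, 87858265 to 87937042 on GRCm38) stood at 60.3, 76.95, 80.3 and 99.7 CPM in knockouts 275, 276, 277 and 278, and at 565, 556, 444 and 379 CPM in controls 279, 280, 281 and 282. The lowest control was 3.81 times the highest knockout, so the groups lay far apart. The log2 fold change of Igf1 was -2.62 (SE 0.18), a 6.13-fold difference and the 27th largest fall among 12172 genes with a mean of at least 5 CPM. Igf2 (chromosome 7, 142650766 to 142666816) was at 4562, 4009, 4048 and 3587 CPM in the knockouts and 4482, 5623, 4126 and 4273 CPM in the controls. The 2 ranges overlapped, and the log2 fold change of Igf2 was -0.19 (SE 0.11). H19, the noncoding RNA made from the same imprinted region as Igf2, was at 11432 ± 1550 against 13002 ± 1817 CPM (-0.19 on the log2 scale, SE 0.11, adjusted p = 0.282 in edgeR's test). The annotation has a gene, Gm49394, that shares 62.8% of the exon bases of Igf2. It is no row of the count table, so the table does not split reads between them.

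**Figure D1:**
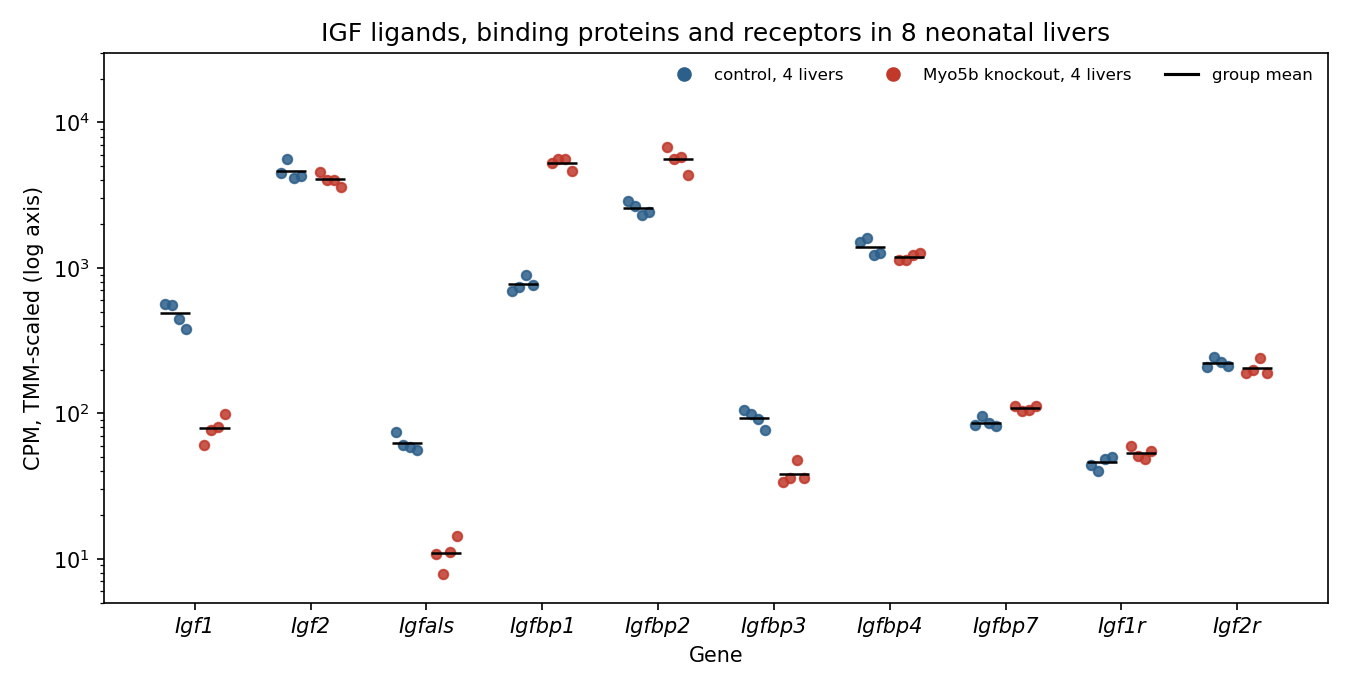
CPM on a log axis of the 10 genes in each of the 4 control livers (blue) and 4 Myo5b knockout livers (red), with black lines at the group means. The groups are separate for Igf1, Igfals, Igfbp1, Igfbp2, Igfbp3 and Igfbp7 and overlap for the other 4 genes.

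Per kilobase of exon, the scale on which genes can be compared with each other, Igf2 far exceeded Igf1 in every liver. Igf1 made up 5.73% ± 0.81 of the summed Igf1 and Igf2 level in control livers and 1.14% ± 0.34 in knockout livers (SD, n = 4). The control shares ran from 4.88% to 6.79% and the knockout shares from 0.758% to 1.58%. The summed ligand level was 857 ± 125 CPM per kilobase in controls and 716 ± 68.2 in knockouts, ranges that overlapped. So the ligand transcripts that a newborn liver holds were mostly Igf2 in both groups, and the Igf1 part was the smaller one in the knockouts.

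Igfals, whose product holds IGF and IGFBP-3 in the ternary complex, was lower to nearly the same degree as Igf1. Igfals (chromosome 17, 24865997 to 24882010) was at 10.85, 7.86, 11.2 and 14.3 CPM in knockouts 275 to 278 and at 74.0, 60.9, 58.9 and 55.7 CPM in controls 279 to 282. All 4 knockouts lay below all 4 controls, with 123 to 1140 reads per library behind the values. Its log2 fold change was -2.50 (SE 0.16), or 5.65-fold. Igfbp3 (chromosome 11, 7206086 to 7213923), the ternary complex carrier, was at 33.6, 35.9, 47.8 and 36.05 CPM in the knockouts and 106, 98.3, 91.4 and 77.4 CPM in the controls. These groups did not overlap either, and the log2 fold change of Igfbp3 was -1.28 (SE 0.12), or 2.43-fold. All 3 genes of the ternary complex of IGF-1 were therefore at lower transcript levels in every knockout liver than in any control.

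Albumin (Alb), a hepatocyte product, was lower too, at a log2 fold change of -1.08 (SE 0.11, adjusted p = 5.74e-06 in edgeR's test). Of 17 hepatocyte genes tested 3 were called higher and 3 lower, or 35.3% against 20.7% of all genes tested. Their median log2 fold change was 0.02. Their summed level was 99176 to 110306 CPM in knockouts and 118202 to 147858 CPM in controls. Alb was the largest part of that sum, at 32558 ± 4519 CPM in knockouts and 68617 ± 8598 CPM in controls. The sum therefore does not speak for the list as a whole. In rodent liver Igfbp3 is made largely outside hepatocytes, by sinusoidal and Kupffer cells. The summed sinusoidal endothelial markers were at 1552 to 1861 CPM in knockouts and 1248 to 1341 CPM in controls, and the Kupffer cell markers at 1664 to 1936 against 931 to 1068 CPM. Both sums were thus higher in the livers in which Igfbp3 was lower, and no marker of either list was at 0. The part of these cell types in the values of Igf1, Igfals and Igfbp3 was not tested.

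Igfbp1 showed the largest difference of the 10 genes, and Igfbp2 was also higher. Igfbp1 (chromosome 11, 7197782 to 7202546, next to Igfbp3) was at 5267, 5610, 5581 and 4614 CPM in knockouts 275 to 278 and at 698, 737, 900 and 763 CPM in controls 279 to 282. The lowest knockout was 5.13 times the highest control. Its log2 fold change was 2.77 (SE 0.10), or 6.80-fold, the 14th largest rise among the 12172 genes with at least 5 CPM. Igfbp1 was thus far higher, and its neighbour Igfbp3 lower, in the same livers. Igfbp2 (chromosome 1, 72824503 to 72852474), an abundant carrier of the fetal period, was at 6741, 5590, 5760 and 4318 CPM in the knockouts and 2881, 2681, 2293 and 2436 CPM in the controls. Again the groups were separate, with a log2 fold change of 1.12 (SE 0.12), or 2.18-fold, and knockout 278 was the knockout nearest the controls.

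The remaining binding proteins differed little. Igfbp4 (chromosome 11, 99041244 to 99054392), which binds IGFs and is cleaved by the protease PAPP-A, was at 1128 to 1263 CPM in knockouts and 1224 to 1599 CPM in controls, with a log2 fold change of -0.23 (SE 0.10). These ranges overlapped. Igfbp7 (chromosome 5, 77349240 to 77408041) encodes a related protein of vessel walls with weak affinity for IGFs. It was at 103 to 112 CPM in knockouts and 81.8 to 95.8 CPM in controls, without overlap (log2 fold change 0.33, SE 0.08). Sinusoidal endothelial markers were higher in the same livers, at a median log2 fold change of 0.41 over 13 genes, and Stab2, a scavenger receptor of these cells, was at 428 ± 28.9 against 322 ± 19.3 CPM. Their part in the Igfbp7 value was not tested. An exon of the neighbouring gene Polr2b on the opposite strand covers 7.03% of the Igfbp7 exon bases. No source used here states whether counting used strand, and reads there could belong to either gene.

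**Figure D2:**
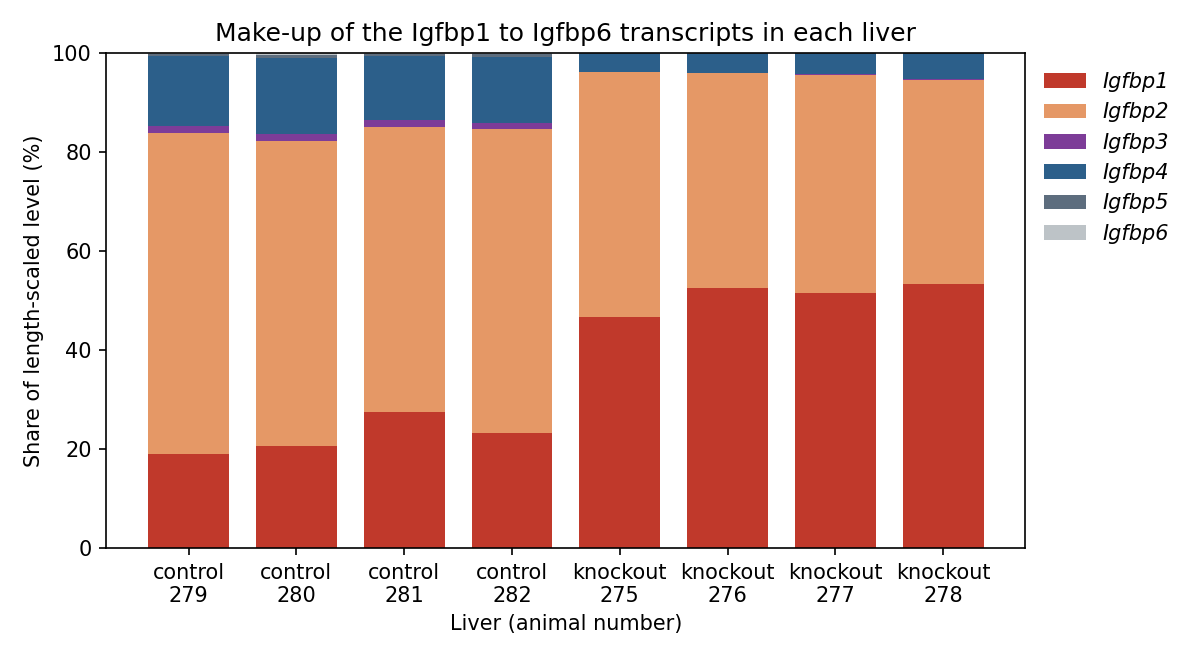
Share (%) of each of Igfbp1 to Igfbp6 in their summed level per kilobase of exon, as stacked bars for the 4 control and 4 knockout livers. Igfbp1 takes 46.7% to 53.3% in knockouts and 19.03% to 27.4% in controls, and the Igfbp4 and Igfbp3 parts are thinner in every knockout. The sum is larger in knockouts, and the level of Igfbp4 itself overlapped between the groups.

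The make-up of the binding protein transcripts therefore differed between the groups. In controls Igfbp2 led with 61.4% ± 2.93 of the summed level of Igfbp1 to Igfbp6 per kilobase, followed by Igfbp1 with 22.6% ± 3.68 and Igfbp4 with 13.95% ± 1.09 (SD, n = 4). In knockouts Igfbp1 held 51.1% ± 2.97, Igfbp2 44.5% ± 3.49 and Igfbp4 4.03% ± 0.70. Igfbp3 was 1.31% ± 0.11 of the sum in controls and 0.182% ± 0.033 in knockouts. The summed level itself was 6788 ± 761 CPM per kilobase in knockouts and 2264 ± 133 in controls, 3.00 times as high. Igfbp4 itself was at 270 ± 15.2 CPM per kilobase in knockouts and 317 ± 40.8 in controls, with overlapping ranges. Its smaller share thus came mostly from the larger sum. Igfbp1 exceeded Igfbp2 in knockouts 276, 277 and 278, whereas in knockout 275 Igfbp2 (49.4%) exceeded Igfbp1 (46.7%). As shares of CPM, without division by length, the mean order in knockouts turned, with Igfbp2 at 45.7% and Igfbp1 at 43.35%. Per kilobase, Igfbp5 and Igfbp6 held under 1% each in every liver.

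The receptor genes had overlapping ranges in the 2 groups. Igf1r (chromosome 7, 67952827 to 68233668), which signals for both ligands, was at 48.4 to 59.5 CPM in knockouts and 40.3 to 50.5 CPM in controls (log2 fold change 0.22, SE 0.10). Igf2r (chromosome 17, 12682406 to 12769664), the clearance receptor of IGF-2, was at 189 to 240.5 CPM in knockouts and 208 to 245 CPM in controls (log2 fold change -0.12, SE 0.09). In the annotation, no exon of Airn, the noncoding RNA that is antisense to Igf2r, overlaps an exon of Igf2r.

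All 10 genes passed the filter on low counts, and in the fit over all genes 3 of the 10 were called higher (Igfbp1, Igfbp2 and Igfbp7) and 3 lower (Igf1, Igfals and Igfbp3), where 20.7% of all genes tested were called. The same 6 genes were those without overlap between the groups, against 23.6% of all genes. Since the genes were chosen from this contrast, these counts describe them and support nothing further. The median log2 fold change of the 10 was -0.16, and that of all genes tested 0.01. Within a group the livers varied moderately. The coefficient of variation ran from 7.42% (Igf2r) to 18.5% (Igf1) in controls and from 4.09% (Igfbp7) to 23.7% (Igfals) in knockouts. Knockout 278 had the highest Igf1 and Igfals and the lowest Igfbp1, Igfbp2 and Igf2 of the 4 knockouts. It also had the highest erythroid marker level of them (mean 5.45 log2 CPM, against 4.36 to 4.81). Its Igf2 value was the knockout value farthest from the controls. Igfbp3 was highest in knockout 277 (47.8 CPM, against 36.05 in 278), which had the lowest erythroid marker level.

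The order of the 10 transcripts per kilobase of exon was changed in part. In controls it ran Igfbp2 (1393 ± 141 CPM per kilobase), Igf2 (808 ± 119), Igfbp1 (508 ± 57.5), Igfbp4 (317 ± 40.8), Igfbp7 (71.5 ± 5.32), Igf1 (49.1 ± 9.08), Igfbp3 (29.8 ± 3.86), Igf2r (23.9 ± 1.78), Igfals (19.7 ± 2.55) and Igf1r (2.74 ± 0.27). Igfbp3 and Igf2r overlapped in range, as did Igf2r and Igfals, and the other neighbours in that order did not. In knockouts Igfbp1 (3454 ± 303 CPM per kilobase) and Igfbp2 (3033 ± 539) stood at the top, with ranges that overlapped, ahead of Igf2 (708 ± 69.8). Igf1 fell from the sixth to the eighth place, at 8.01 ± 1.63 CPM per kilobase, behind Igf2r and Igfbp3. Igfals (3.48 ± 0.83) overlapped Igf1r (3.19 ± 0.29) at the bottom. With the longest transcript of each gene in place of all its exons, 4 genes changed places in the knockout order, Igfbp1 with Igfbp2 and Igfals with Igf1r.

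Profiles over the 8 livers were compared by the root mean square difference of log2 CPM, each gene centred on its own mean, among 11013 genes with at least 5 CPM and an established symbol. The gene nearest to Igf1 was Igfals, at 0.24, followed by Arhgef19, a guanine nucleotide exchange factor gene, at 0.30 and Ces2g, a carboxylesterase gene, at 0.31. Igfals had Ces2g (0.20), Igf1 (0.24) and Bhmt, of betaine and homocysteine metabolism (0.26), as its nearest genes. Ces2g has closely related neighbours, so its counts are uncertain. Igfbp1 was nearest to Cd74, the invariant chain of MHC class II (0.24), Adamts14, a procollagen protease gene (0.25), and Nrbp2 (0.28). Cd74 stood at 234 ± 39.2 CPM in knockouts and 39.1 ± 6.50 CPM in controls. All these profiles share the gap between the 2 genotypes.

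Among the growth hormone receptor and STAT5 genes, Ghr and Prlr were lower, and Socs3 and Ptpn1 were higher. This list of 12 genes, and the lists that follow, were chosen with earlier results of these data known. Of the 12, all tested, 4 rose and 2 fell, against 9.27% and 11.4% of all genes, and the median log2 fold change was 0.07. Ghr, the growth hormone receptor, had a log2 fold change of -1.26, with 118 ± 16.1 CPM in knockouts and 283 ± 34.0 CPM in controls (SE 0.11, adjusted p = 1.06e-06 in edgeR's test). Prlr, the related prolactin receptor, fell from 186 ± 13.4 to 71.8 ± 7.66 CPM (-1.38, SE 0.09, adjusted p = 1.02e-07). Ghr and Prlr were called lower in each fit that left out 1 liver, and all 4 knockouts lay below all 4 controls for both genes. Stat5b, the main STAT5 of liver, was at 83.9 ± 7.32 against 82.4 ± 6.04 CPM (0.03, SE 0.09, adjusted p = 0.881).

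Socs3, an inhibitor of cytokine receptor signalling, rose by 0.77 on the log2 scale, with 17.8 ± 4.74 CPM in knockouts against 10.4 ± 0.85 CPM (SE 0.18, adjusted p = 0.00467 in edgeR's test), and Ptpn1, a phosphatase that acts on JAK2 and the insulin receptor, rose by 0.41 (SE 0.09, adjusted p = 0.00266). Socs2, a feedback inhibitor that growth hormone induces, was called higher at 62.45 to 108 CPM in knockouts against 55.0 to 74.1 CPM in controls (0.46, SE 0.15, adjusted p = 0.0463). Its groups overlapped, and the call was lost without knockout 275 (0.33), 276 (0.47) or 277 (0.44) or control 279 (0.44), 280 (0.44) or 281 (0.40). Jak2, the kinase bound to the growth hormone receptor, rose by 0.25 (SE 0.08, adjusted p = 0.0468), a call lost in each fit that left out 1 liver, at 0.21 to 0.27. The number of genes of this list that rose was thus 2 without knockout 275, 276 or 277 or control 279, 280 or 281. Cish, another growth hormone target, was at 10.7 ± 0.89 against 9.93 ± 0.97 CPM (0.11, SE 0.16, adjusted p = 0.682).

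**Figure D3:**
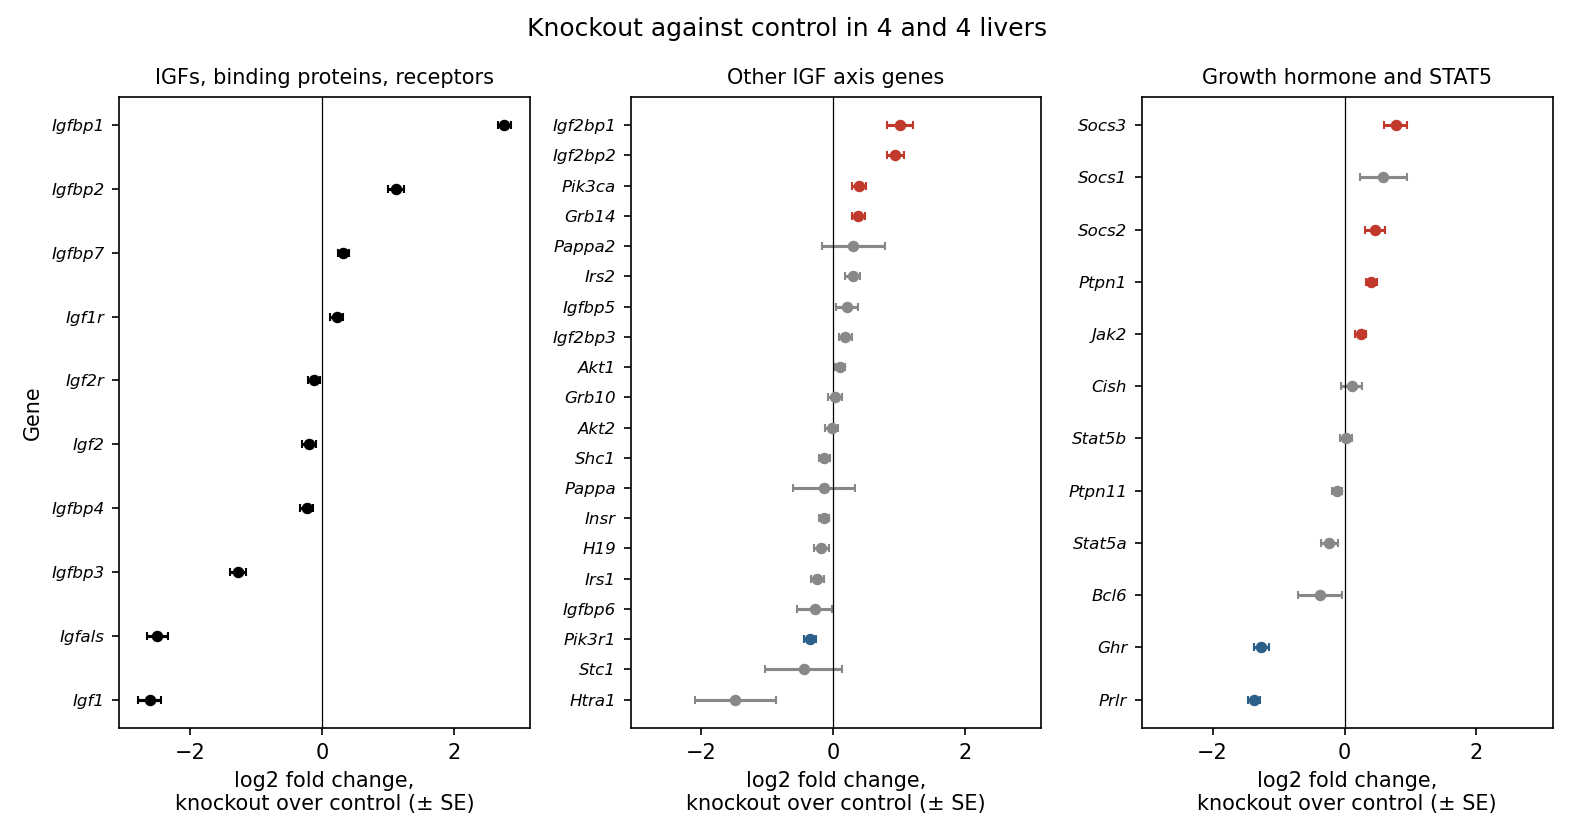
Log2 fold change of knockout over control livers (4 and 4), with bars of 1 SE, for the 10 genes (left, black), the 20 tested genes of the wider IGF axis (centre) and the 12 growth hormone and STAT5 genes (right). In the centre and right panels genes called higher are red, genes called lower blue and the others grey, with Igf2bp1, Igf2bp2 and Socs3 at the top and Ghr and Prlr at the bottom right.

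Of 23 other genes of the IGF axis 20 were tested, and 4 rose and 1 fell, with a median log2 fold change of 0.00. The share called was 25% of the list, near the 20.7% of all genes tested, so the count describes single genes and not the axis. Igf2bp1 and Igf2bp2, RNA-binding proteins named for binding Igf2 mRNA, were the largest rises. Igf2bp1 stood at 12.2 ± 1.71 CPM in knockouts and 6.003 ± 1.39 CPM in controls (a log2 rise of 1.02, SE 0.20, adjusted p = 0.00132 in edgeR's test) and Igf2bp2 at 45.3 ± 7.08 and 23.6 ± 3.31 CPM (0.94, SE 0.13, adjusted p = 7.30e-05). For both, every knockout lay above every control, while the 2 groups overlapped in Igf2 itself. Within the receptor pathway, Grb14, an inhibitor of the insulin receptor, rose by 0.38 (SE 0.10, adjusted p = 0.0135) and Pik3ca, the catalytic subunit of PI3-kinase, by 0.39 (SE 0.11, adjusted p = 0.0167). Pik3r1, its regulatory subunit, fell from 226 ± 20.6 to 177 ± 12.1 CPM (-0.35, SE 0.09, adjusted p = 0.00750), and when scaled by hepatocyte genes it stood at 0.03, below the median of all genes of 0.38 in that scaling. The Grb14 call was lost without knockout 276 (0.29), and the Pik3ca call without knockout 275 (0.36) or 276 (0.34) or control 279 (0.32). Leaving out knockout 276 gave 2 genes higher in this list, and leaving out control 280 or 282 gave 2 lower.

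The insulin receptor gene Insr (254 ± 14.2 against 280 ± 11.7 CPM, adjusted p = 0.224 in edgeR's test) and the adaptor genes Irs1 (82.1 ± 8.98 against 97.2 ± 7.66 CPM, adjusted p = 0.0822) and Irs2 (204 ± 26.04 against 167 ± 21.8 CPM, adjusted p = 0.0693) did not pass the test. Irs1 passed it without control 280 (-0.30). Irs2 passed it without knockout 278 (0.37), with upper-quartile scaling (0.32), library size alone (0.36) or hepatocyte gene scaling (0.68), with no low-count filter (0.29) and with limma-voom (0.32), so its call depends on these settings. Igfbp5, the binding protein that can replace IGFBP-3 in the ternary complex, was at 83.0 ± 14.6 against 71.9 ± 16.03 CPM (0.21 on the log2 scale, SE 0.17, adjusted p = 0.435). Unlike Igfbp3, it was therefore not lower in the knockout livers. The PAPP-A protease genes Pappa and Pappa2 were near 1 CPM in both groups, too low for their folds to be read.

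Igfbp1 is known to be induced through FOXO factors when insulin is low, through ATF4 in stress of amino acid supply or the endoplasmic reticulum, and in hypoxia. The values of other genes of these responses are given as a description, and their part in the Igfbp1 value was not tested. Of 14 FOXO genes and targets, 1 rose and 3 fell, or 28.6% against 20.7% of all genes tested, and the median log2 fold change was -0.10. Pdk4, which spares glucose by inhibiting pyruvate dehydrogenase, rose by 1.54 on the log2 scale, with 146 ± 44.4 CPM in knockouts against 50.3 ± 7.77 CPM (SE 0.25, adjusted p = 0.00447 in edgeR's test), whereas G6pc, the last step of glucose release, fell from 540 ± 91.0 to 348 ± 40.2 CPM (-0.64, SE 0.12, adjusted p = 0.00123). Foxo3 (-0.60, SE 0.11, adjusted p = 7.11e-04) and Sesn3 (-0.42, SE 0.11, adjusted p = 0.00917) fell too. Without knockout 278, 2 of these genes rose. Sesn3 was named after its values were seen.

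Of 13 ATF4 genes and targets tested, 2 rose and none fell, or 15.4% against 20.7% of all genes tested, with a median of 0.25. At an adjusted p under 0.05 in DESeq2, 3 were higher and 0 lower. At an unadjusted p under 0.05 in edgeR's test, a looser threshold, 4 were higher and 0 lower. The share of all genes at that looser threshold is not given here. Nupr1, a stress-induced chromatin protein, rose from 2.34 ± 0.72 to 7.78 ± 2.46 CPM (1.73, SE 0.29, adjusted p = 3.71e-04) and the transcription factor gene Atf5 from 249 ± 32.9 to 475 ± 126 CPM (0.93, SE 0.17, adjusted p = 0.00361). Fgf21, a hormone of fasting and stress, was at 9.46, 15.1, 16.4 and 57.3 CPM in knockouts 275 to 278 and 2.66 to 6.30 CPM in controls (2.37, SE 0.67, adjusted p = 0.0541). Without knockout 278, the highest in Fgf21 and the lowest knockout in Igfbp1, Fgf21 was at 1.52 with an adjusted p of 4.80e-04, and 4 genes of the list rose. Without knockout 275 it also passed the test (2.64, adjusted p = 0.0401). Of 12 hypoxia targets, 2 rose and 4 fell, or 50% against 20.7% of all genes tested. Their median was -0.50, against 0.01 for all genes, and 2 fell without knockout 276. Vegfa, the endothelial growth factor, rose by 0.34 (SE 0.09, adjusted p = 0.00982), while Pdk1 (-0.71, SE 0.11, adjusted p = 1.54e-04) and Ndrg1 (-0.78, SE 0.13, adjusted p = 4.86e-04) fell. The others of these counts were Hk2, higher, and Egln3 and Higd1a, lower, named after their values were seen. No liver's nutrition or oxygen supply was measured here.

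**Figure D4:**
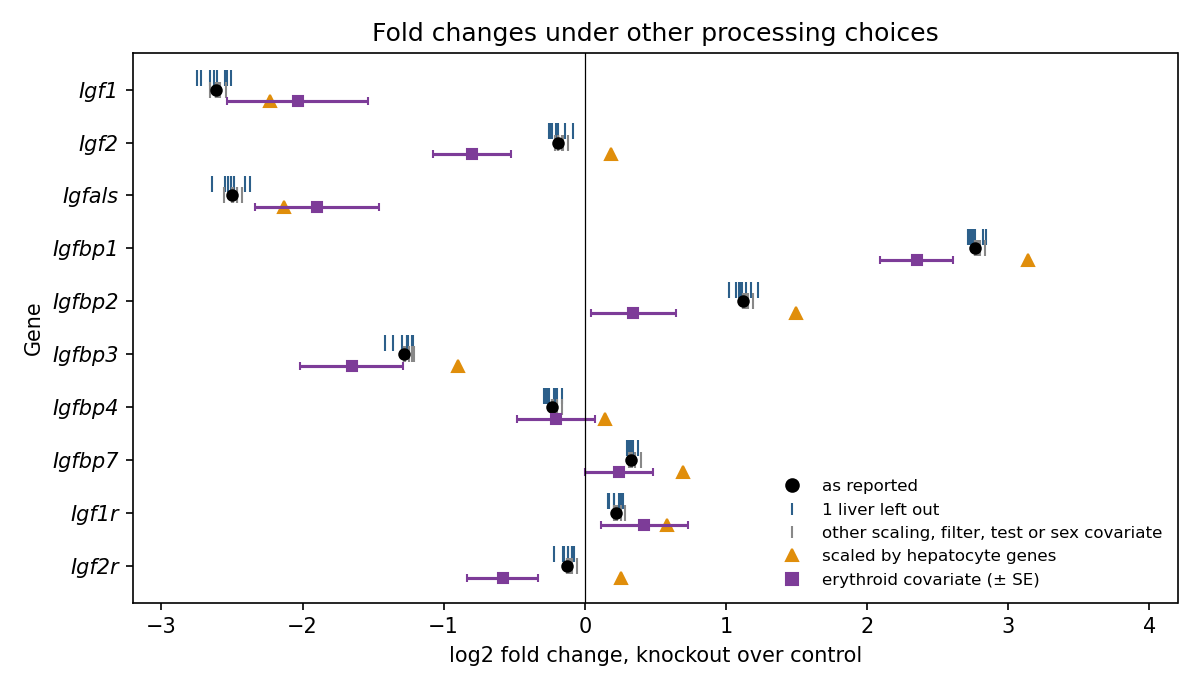
Log2 fold change of the 10 genes under other processing choices: as reported (black), with 1 liver left out (blue ticks), with another scaling, filter, test or a Y-linked sex covariate (grey ticks), scaled by hepatocyte genes (orange) and with an erythroid covariate (purple, bars of 1 SE). With the erythroid covariate the bars are widest for Igf1 (-2.03, SE 0.50), Igfbp1 lies at 2.35 (SE 0.26) and Igfbp2 at 0.35 (SE 0.30).

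Because erythroid markers were lower in every knockout, the fit was repeated with their mean log2 CPM as a covariate. That covariate correlated with genotype at -0.946 over the 8 livers and had a variance inflation factor of 9.44. In that fit the log2 fold change of Igfbp1 was 2.35 (SE 0.26), and its call was kept (adjusted p = 9.4e-04 in edgeR's test). The calls of Igf1 (-2.03, SE 0.50, adjusted p = 0.25) and Igfals (-1.90, SE 0.44, adjusted p = 0.116) were lost. That of Igfbp3 (-1.65, SE 0.37, adjusted p = 0.104) was lost as well. Igfbp2 (0.35, SE 0.30, adjusted p = 0.848) and Igfbp7 (0.24, SE 0.24, adjusted p = 0.875) also lost their calls. Genotype and erythroid content cannot be told apart well in these 8 livers. The livers also differed in Y-linked expression, which was present in knockout 277 and in controls 279 and 281, and with it as a covariate the fold changes were -2.60 for Igf1, -2.46 for Igfals and 2.79 for Igfbp1. Scaling by hepatocyte genes moved the median of all genes to 0.38. Igf2 (0.19), Igfbp4 (0.14) and Igf2r (0.26) then changed sign but lay below that median. This scaling used the summed counts of the listed hepatocyte genes, of which Alb, itself lower in knockouts (-1.08), was the largest. In the main fit the median log2 fold change of the 17 tested was 0.02. The scaling is thus not a measure of hepatocyte content alone, and the part of Alb in these shifts was not tested.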

How the data were processed

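RNA from 8 whole livers (4 Myo5b knockout, 4 control pups) was sequenced. The authors deposited unnormalized counts of reads for each Ensembl gene, made with Rsubread 2.20.0 in R 4.4.1, per the labels' protocols, and with featureCounts according to the submitters' processing notes. The labels write the build as GRMm38, taken here to mean GRCm38. Annotation, strand setting and treatment of reads with several matches were not given in the sources used here.

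Of 48440 rows, 48058 matched GENCODE M21 (GRCm38), which gave symbols, coordinates and exon lengths. Groups came from the labels' titles. Each library is 1 animal, and libraries of a group differed by a chi-square of 11.9 to 21.8 per degree of freedom, so none was entered again. Genes were kept by filterByExpr (minimum count 10, minimum total 15), scaled by TMM and compared by the quasi-likelihood test of edgeR 4.0.16 with robust dispersions, under R 4.3.3 with limma 3.58.1. P-values were adjusted by Benjamini-Hochberg over all 18274 genes, with a threshold of 0.05. SE is the size of the log2 fold change divided by the square root of F. Log2 CPM use a prior count of 2. The code was tested on simulated data.

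The 10 genes, the gene lists and the tests were chosen with earlier results of these data known. The text names the 10 genes, Myo5b, genes of the IGF axis and growth hormone lists, the 3 smallest p in each FOXO, ATF4 and hypoxia list, the 3 nearest profiles of Igf1, Igfals and Igfbp1, and cell type markers, of which 1 is not reported here. Alternatives were 4 other scalings, 2 other filters, non-robust dispersion, DESeq2 1.42.0, limma-voom, a minimum fold of 1.5, erythroid and Y-linked covariates, and each liver left out. Protein sequences were not used here. Figures were drawn with matplotlib 3.10.9.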

Additional observations from a re-analysis of the deposited data

Results flagged for a closer look

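Among 106 groups of 4 values examined, 5 had a library far from the other 3 by Dixon's ratio, and chance gives about 1 in 20. Knockout 278 was high in Fgf21 (57.3 CPM against 9.46 to 16.4 in the other knockouts) and in Atf5 (663 CPM against 399 to 433). Knockout 276 was high in Adamts14 (72.4 CPM against 42.4 to 46.7). Control 281 was low in Grb14 (73.2 CPM against 82.7 to 84.0) and high in Cd74 (48.7 CPM against 35.0 to 36.8). None of the 10 IGF genes was among them in either group.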

How the results depend on the processing

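With each liver left out in turn, 3 of the 10 IGF genes were called higher and 3 lower every time. All genes called ranged from 1223 to 1762 higher and 1699 to 2167 lower, other IGF axis genes from 2 to 5 and 1 to 2, growth hormone genes from 2 to 3 and 2 to 2, FOXO genes from 1 to 2 and 3 to 3, ATF4 genes from 2 to 4 and 0 to 0, and hypoxia genes from 2 to 2 and 2 to 4. Stat5b ranged from -0.0291 to 0.067, changing sign without knockout 276 (-0.0291) or control 281 (-0.0205). The knockout level order moved 0 to 2 genes and the control order 0. Shares in knockouts ranged from 50.3% to 52.5% (Igfbp1), 42.8% to 45.5% (Igfbp2) and 3.70% to 4.23% (Igfbp4), and in controls from 20.95% to 23.75%, 60.3% to 62.65% and 13.46% to 14.3%.

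Scaled by hepatocyte genes, 6318 genes were higher and 842 lower, with 9 and 0 in the IGF axis, 7 higher in the growth hormone list, 6 and 0 in the FOXO list, 7 higher in the ATF4 list and 0 lower in the hypoxia list. Igf2 (0.19), Igfbp4 (0.14), Igf2r (0.26), Insr (0.22), Irs1 (0.13), H19 (0.19) and Pik3r1 (0.0251) changed sign. With a minimum fold of 1.5, 217 genes were higher and 500 lower, with 1 and 0 in the IGF axis and 0 higher in the growth hormone list. The FOXO list then had 0 lower, the ATF4 list 1 higher and the hypoxia list 0 and 0. Of the 10 IGF genes, 2 were higher and 3 lower with that minimum fold, as the Igfbp7 call was lost. Igf1r (0.58) was called higher when scaled by hepatocyte genes, and Igfbp4 (-0.23) was called lower with no low-count filter. With the erythroid covariate, 23 genes were higher and 17 lower, with 1 and 0 of the 10 IGF genes, 0 and 0 in the IGF axis, growth hormone and hypoxia lists, 0 and 1 in the FOXO list and 3 and 0 in the ATF4 list. Igfbp5 (-0.56), Irs2 (-0.38), Grb14 (-0.0454), Pik3ca (-0.0255), Socs2 (-0.41), Socs3 (-0.34) and Foxo3 (0.0913) changed sign there. With the Y-linked covariate, 2 growth hormone genes were higher. FOXO genes higher were 2 with upper-quartile scaling, library size alone, no low-count filter or limma-voom, ATF4 genes higher 4 with limma-voom or non-robust dispersion, and IGF axis genes lower 2 with no filter. With the longest transcript, 4 genes changed places in the knockout order. As shares of CPM, Igfbp1, Igfbp2 and Igfbp4 held 43.35%, 45.7% and 9.91% in knockouts, and Igfbp1, Igfbp2 and Igfbp4 held 15.9%, 52.3% and 28.4% in controls. For the changes in this paragraph, the cause was not tested.

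No paired analysis was possible because the groups share no replicate numbers. The labels give no age or litter per pup, so differences of these kinds cannot be told apart from genotype where they coincide with it. Y-linked expression did not coincide with genotype, and the fit that included it called 1483 genes higher and 1899 lower.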
